A study of Mus musculus with 4 samples.

Results

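The genes of cholesterol and fatty acid synthesis were followed by RNA sequencing in naive microglia, the macrophages that live in brain tissue. The set held 32 genes chosen by symbol, and all 32 were found among the 56832 gene rows of each library's count file. They comprised 17 enzymes of sterol synthesis, 6 regulators and transport genes and 9 enzymes of fatty acid synthesis, elongation and desaturation. The cells were sorted from brains of female C57BL/6 mice with no intervention, which were litter mates of transplanted mice, by CD11b and by low or intermediate CD45. They gave 4 libraries, numbered as replicates 1 to 4. The labels give no age, no transgene and no word on whether a library came from 1 animal or from a pool. Cells of transplanted mice were not analysed here, so there was no comparison between conditions, and every spread below is a spread between these 4 libraries, which may be technical.

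Cells build cholesterol from acetyl-CoA through mevalonate, isoprenoid units, squalene and lanosterol, and they build fatty acids from the same acetyl-CoA through malonyl-CoA. The transcription factors SREBP-1 and SREBP-2 switch on both pathways when sterols are scarce, after the escort protein SCAP carries them from the endoplasmic reticulum to the Golgi apparatus, whereas INSIG proteins hold SCAP back when sterols are plentiful. The brain makes its own cholesterol because lipoproteins of the blood hardly cross the blood-brain barrier, and microglia also take up lipid from myelin and from dying cells.

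Depth was 20360121 to 23292655 reads assigned to genes per library. Levels are given as CPM, each count scaled to the library's reads assigned to genes, and a count of 0 allows up to 3 counts, or 0.129 to 0.147 CPM. All 8 microglial markers, such as Tmem119 and P2ry12, reached 1 CPM in every library, and their summed level was 54750, 29475, 29639 and 55431 CPM in replicates 1 to 4. The libraries differed before any member was considered. By chi-square per degree of freedom over gene counts, replicates 2 and 3 were closest, at 51.7, and the other pairs stood at 236 to 414, replicates 1 and 4 at 236. Replicates 1 and 4 held 14850 and 13944 genes with a count, against 18978 and 18431 in replicates 2 and 3. The 18 early response genes, such as Fos and Jun, took 0.588%, 6.50%, 5.76% and 0.634% of counts. The part that either difference plays in the levels below was not tested. In sorted bulk cells, fewer cells of a type and less RNA per cell cannot be told apart.

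Both pathways were present at a low to moderate level. Together the 32 genes took 0.109%, 0.109%, 0.0968% and 0.120% of counts in replicates 1 to 4, a mean of 0.109% ± 0.0093 (SD, n = 4). That sum was alike in the 4 libraries although single genes differed by much more, as described below. In every library, 21 of the 32 genes reached 1 CPM, against 38.8% of all genes with a count. The threshold of 10 CPM in every library was met by 14 of the 32, against 26.4% of all such genes. None of the 32 reached 100 CPM in every library, against 5.28% of all such genes, although 6 did so in some library: Msmo1, Ebp, Sc5d, Acly, Elovl5 and Fads1. Without replicate 4, 1 gene did, Acly. All 32 reached 1 CPM in at least 1 library. The background of all genes with a count also held genes below 100 counts in every library. Each of the 32 had 100 counts or more in some library. Of the 11663 genes of that kind, 5731 met 10 CPM in every library, so the share of the members was not above theirs. The median level was 15.9 ± 2.64 CPM for the sterol enzymes, 18.0 ± 9.32 CPM for the regulators and transport genes and 9.34 ± 4.46 CPM for the fatty acid enzymes (SD, n = 4). These medians are not corrected for gene length. Per kb of exon the sterol enzymes had the highest median, at 5.57 CPM per kb, against 3.06 for the regulators and transport genes and 2.53 for the fatty acid enzymes. The median over the 9075 genes that passed the filter of the test used below was 32.3 ± 1.12 CPM, but 10 of the 32 members did not pass that filter. Over the 11663 genes with 100 counts or more in some library, which include all 32, the median was 22.0 ± 1.66 CPM, against 17.4 ± 4.11 CPM for the members.

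**Figure D1:**
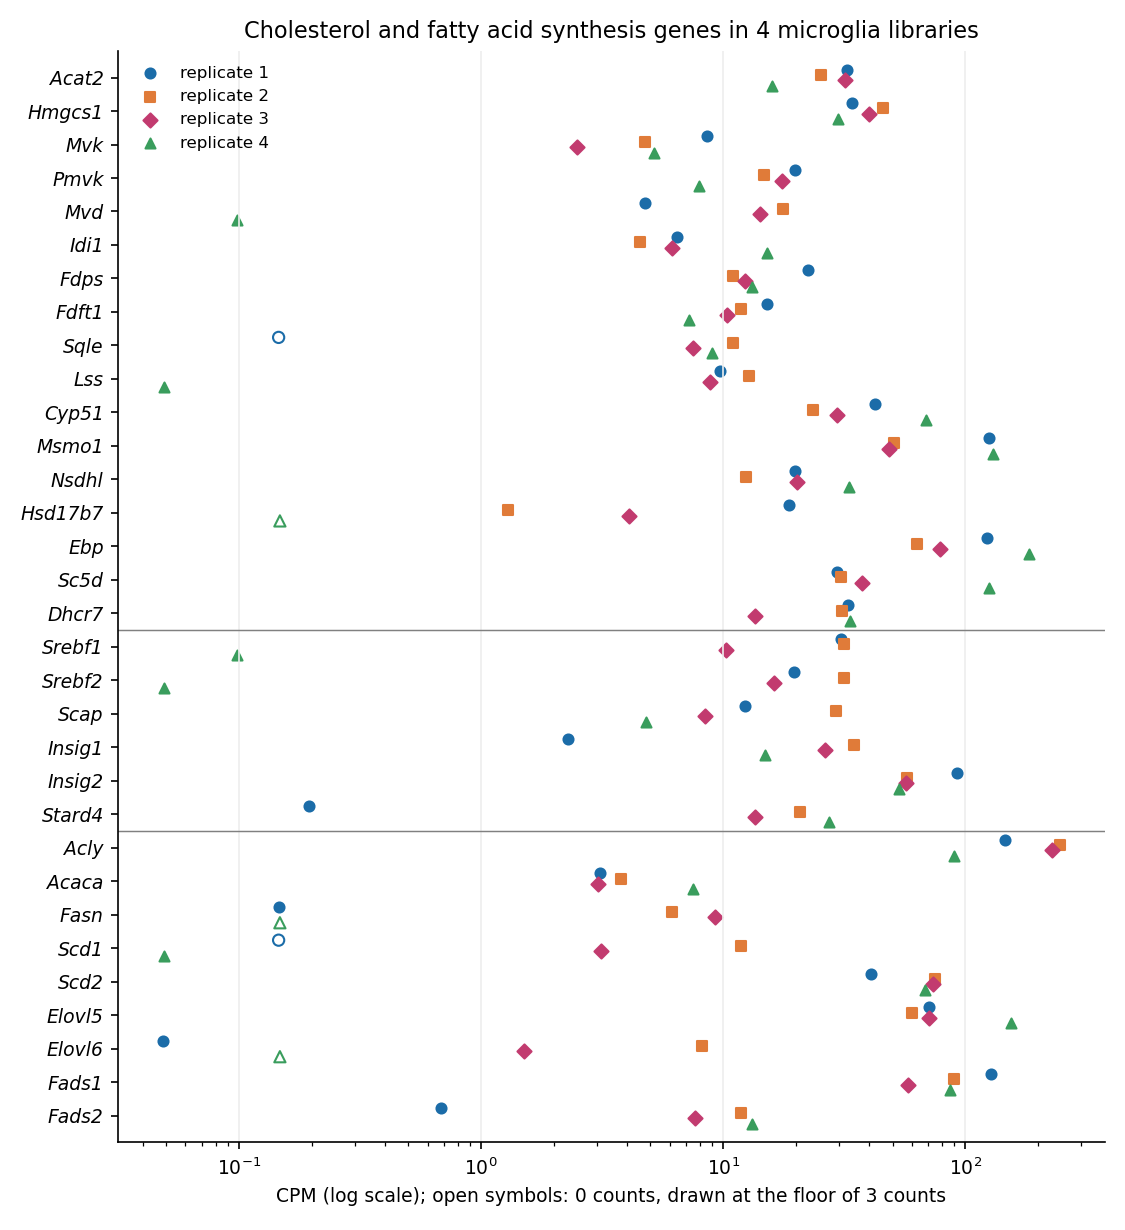
Level of each of the 32 genes in each of the 4 microglia libraries, in CPM on a log axis, with sterol enzymes at the top, regulators and transport genes in the middle and fatty acid enzymes at the bottom. Most genes lie between 1 and 200 CPM, while Mvd, Sqle, Lss, Hsd17b7, Srebf1, Srebf2, Fasn, Scd1 and Elovl6 fall to 3 counts or fewer in replicate 1, replicate 4 or both.

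The first steps of sterol synthesis turn acetyl-CoA into mevalonate and its phosphates. Acat2, the cytosolic thiolase that joins a pair of acetyl-CoA molecules, gave 32.4, 25.2, 31.9 and 15.8 CPM in replicates 1 to 4. Hmgcs1, the cytosolic synthase of HMG-CoA, gave 34.1, 45.8, 39.8 and 29.6 CPM and was the steadiest sterol enzyme, at 37.3 ± 7.01 CPM (SD, n = 4). Its highest library stood 1.54-fold above its lowest. Mvk, the mevalonate kinase, was low throughout, at 8.59, 4.74, 2.49 and 5.16 CPM. Pmvk, which adds the next phosphate, gave 19.8, 14.7, 17.4 and 7.96 CPM. Mvd, the decarboxylase that ends this stretch, gave 4.76, 17.6, 14.1 and 0.0982 CPM, the last from 2 counts. Its level in replicate 2 was thus 179-fold that in replicate 4, with a 95% counting interval of 49.4 to 1487.

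The middle steps join isoprenoid units into squalene and close its rings. Idi1, the isomerase of the isoprenoid units, gave 6.41, 4.52, 6.14 and 15.1 CPM and was highest in replicate 4. Fdps, which makes farnesyl diphosphate, gave 22.5, 10.9, 12.2 and 13.1 CPM. Fdft1, the squalene synthase at the branch toward sterols, gave 15.1, 11.9, 10.4 and 7.22 CPM. Those 3 genes had counts of 102 or more in each library. The next 2 enzymes did not. Sqle, the oxygen-dependent squalene epoxidase, had 0, 247, 175 and 183 counts, so its level in replicate 2 was at least 75.1-fold higher than in replicate 1. Lss, which folds the epoxide into lanosterol, had 200, 287, 205 and 1 counts. Replicate 1 was thus empty for Sqle and replicate 4 nearly empty for Lss, while the neighbouring enzyme was well counted in the same library.

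The late steps, which trim lanosterol down to cholesterol, held the sterol enzymes with the highest level per kb of exon, Ebp and Msmo1. Cyp51, the lanosterol demethylase, gave 42.2, 23.4, 29.6 and 68.7 CPM. Msmo1, the oxidase that removes methyl groups from the sterol ring, gave 125, 50.7, 48.3 and 129.7 CPM. Ebp, the isomerase that shifts the ring's double bond, gave 123, 62.9, 78.3 and 183 CPM. Each of these 3 genes was higher in replicates 1 and 4 than in replicates 2 and 3, with no overlap, which was the case for 19.2% of all genes with 100 counts or more in some library and for 4 of the 32 genes here, Idi1 being the fourth. Nsdhl, which acts with Msmo1, gave 19.8, 12.4, 20.05 and 33.1 CPM. Hsd17b7, the ketoreductase of the same complex, had 386, 29, 95 and 0 counts, at least 127-fold more in replicate 1 than in replicate 4. Sc5d, a desaturase of the last steps, gave 29.6, 30.7, 37.5 and 125 CPM, so replicate 4 stood alone. Dhcr7, a reductase of the last steps, gave 32.8, 30.96, 13.5 and 33.3 CPM, so replicate 3 was the low one. Summed over the 17 sterol enzymes, the level was 544, 371, 382 and 676 CPM in replicates 1 to 4.

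Of the regulators and transport genes, Insig2 was highest per kb of exon, at 18.7 ± 5.34 CPM per kb (SD, n = 4). It gave 92.5, 57.1, 56.7 and 53.1 CPM, a mean of 64.9 ± 18.5 CPM (SD, n = 4). Its relative Insig1, itself a known SREBP target, gave 2.28, 34.6, 26.2 and 14.9 CPM, a 15.2-fold range with replicate 1 lowest. Scap gave 12.3, 29.1, 8.41 and 4.81 CPM. Srebf1, which encodes SREBP-1, had 628, 710, 239 and 2 counts, and Srebf2, which encodes SREBP-2, had 402, 708, 376 and 1 counts. Both factors were thus nearly uncounted in replicate 4, the library with the highest summed level of sterol enzymes. The sterol enzymes did not all follow that sum. Their median was 15.1 CPM in replicate 4 against 19.8 CPM in replicate 1. By CPM, 7 of the 17 were highest in replicate 4 and 7 were lowest there. Among the 11663 genes with 100 counts or more in some library, those shares were 32.7% and 40.3%. The level of Srebf1 in replicate 2 was 320-fold that in replicate 4 (95% counting interval 88.3 to 2649), and that of Srebf2 was 638-fold (114 to 25254). Without replicate 4, the lowest of the other libraries was replicate 3 for both genes, at 10.3 CPM for Srebf1 and 16.1 CPM for Srebf2. Stard4, a carrier that moves cholesterol between membranes, had 4, 466, 315 and 556 counts and was near 0 in replicate 1 only.

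Promoter sequence is shown for 4 members whose levels are described here, Hmgcs1, Sc5d, Srebf2 and Insig1. Of the 25 members found in the promoter table, Hmgcs1 alone held TCACNCCAC, the letters searched as a sterol regulatory element, in this window. Sc5d was high in replicate 4, and Srebf2 and Insig1 were low in replicate 4 and in replicate 1. Each line gives the 250 bases before the RefSeq start on the strand of the gene, read 5′ to 3′, from the GRCm38.p6 table. Those positions are not in the coordinates of the counts, which use GRCm39. Capitals mark the motifs searched on both strands, which were TCACNCCAC (sterol regulatory element), CACGTG (E-box) and CCAAT (the box bound by NF-Y, a known partner of SREBP). A motif on the other strand appears as its reverse complement, ATTGG for CCAAT.
Hmgcs1: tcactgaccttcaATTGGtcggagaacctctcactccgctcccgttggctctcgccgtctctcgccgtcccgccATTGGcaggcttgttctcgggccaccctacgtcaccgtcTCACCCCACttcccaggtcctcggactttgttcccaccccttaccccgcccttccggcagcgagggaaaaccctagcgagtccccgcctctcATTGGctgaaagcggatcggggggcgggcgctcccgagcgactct
Sc5d: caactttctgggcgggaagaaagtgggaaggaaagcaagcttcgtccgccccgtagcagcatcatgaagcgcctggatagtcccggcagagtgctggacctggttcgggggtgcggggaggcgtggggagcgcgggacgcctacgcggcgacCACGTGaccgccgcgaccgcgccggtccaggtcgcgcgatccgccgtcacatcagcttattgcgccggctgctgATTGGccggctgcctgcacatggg
Srebf2: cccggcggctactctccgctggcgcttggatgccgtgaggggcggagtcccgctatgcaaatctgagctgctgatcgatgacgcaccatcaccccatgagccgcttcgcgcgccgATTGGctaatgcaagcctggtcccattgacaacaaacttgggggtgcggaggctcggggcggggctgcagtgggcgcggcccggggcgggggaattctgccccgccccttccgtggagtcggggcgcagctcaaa
Insig1: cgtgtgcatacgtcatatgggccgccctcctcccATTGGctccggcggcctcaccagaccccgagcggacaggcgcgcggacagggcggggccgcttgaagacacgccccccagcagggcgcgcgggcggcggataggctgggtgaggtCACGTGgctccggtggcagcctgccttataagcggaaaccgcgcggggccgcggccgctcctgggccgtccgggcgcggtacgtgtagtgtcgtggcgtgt
The windows are chr13:119690101-119690350 on the + strand for Hmgcs1, chr9:42264301-42264550 on the - strand for Sc5d, chr15:82147019-82147268 on the + strand for Srebf2 and chr5:28071162-28071411 on the + strand for Insig1. Hmgcs1 held 1 sterol regulatory element, starting 137 bases before the start, and 3 CCAAT boxes, at 237, 176 and 45 bases. Sc5d held an E-box at 98 bases and a CCAAT box at 24 bases. Srebf2 held 1 CCAAT box, at 135 bases, and Insig1 held 1 at 216 bases and an E-box at 101 bases.

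The table held 33 windows for 25 of the 32 genes. CCAAT was found in 20 of the 33 windows (60.6%), against 33.8% of all 32851 windows in the table. The E-box was found in 6 windows (18.2%), against 6.02%, and the sterol regulatory element in 1 (3.03%), against 1.05%. These are matches of letters within 250 bases and not measured binding sites, and windows of 1 gene can overlap. Sequences that differ from the searched letters were not counted, so a window without a match can still hold a variant of the element.

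Fatty acid synthesis starts from citrate. Acly, the citrate lyase that supplies cytosolic acetyl-CoA to both pathways, gave 146, 245, 228 and 89.8 CPM, or 33.6 ± 13.8 CPM per kb of exon (SD, n = 4). The next enzymes of the pathway were below 1 CPM per kb on average. Acaca, the acetyl-CoA carboxylase, gave 3.11, 3.76, 3.05 and 7.47 CPM. Fasn, the fatty acid synthase, had 3, 138, 216 and 0 counts. Both core enzymes of de novo synthesis thus stayed below 10 CPM in every library, and Fasn was at 3 counts or fewer in replicates 1 and 4.

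The desaturases and elongases each showed 1 abundant and 1 scarce relative. Scd2 gave 40.7, 74.8, 73.1 and 68.3 CPM, whereas Scd1, which introduces the same double bond, had 0, 267, 73 and 1 counts. Fads1, a desaturase of polyunsaturated fatty acids, gave 128, 89.5, 58.1 and 86.1 CPM, whereas Fads2, which acts before it, gave 0.679, 11.8, 7.64 and 13.2 CPM and was lowest in replicate 1. Elovl5, an elongase of polyunsaturated fatty acids, gave 70.9, 60.2, 70.8 and 155 CPM, whereas Elovl6, which extends saturated chains made by Fasn, had 1, 184, 35 and 0 counts. Scd1, Elovl6 and Fasn were each at 3 counts or fewer in replicates 1 and 4 and counted in replicates 2 and 3. Replicates 2 and 3 also held the 2 highest levels of 28.2% of the 11663 genes with 100 counts or more in some library. That is a wider criterion than 3 counts or fewer in replicates 1 and 4, for which the share of all genes was not counted. Taken singly, 8.94% of those genes had 3 counts or fewer in replicate 1 and 19.0% in replicate 4, with 100 or more in another library. The pattern is therefore not read as particular to Scd1, Elovl6 and Fasn.

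Levels of different genes can be compared only per length. Per kb of exon, Ebp ranked highest, at 48.4 ± 23.4 CPM per kb (SD, n = 4), before Acly at 33.6 ± 13.8, Elovl5 at 25.3 ± 12.5, Fads1 at 18.8 ± 5.96, Insig2 at 18.7 ± 5.34 and Msmo1 at 14.4 ± 7.32. The same 6 genes led when the longest annotated transcript was used as the length. Acaca, Fasn and Elovl6 ranked lowest, at 0.255 ± 0.123, 0.355 ± 0.419 and 0.377 ± 0.603 CPM per kb. In none of the 31 pairs of neighbours in this order did the means differ by more than the larger of their SDs. The order of neighbours is thus within the spread of the libraries, and the ends of the order were not tested against each other.

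**Figure D2:**
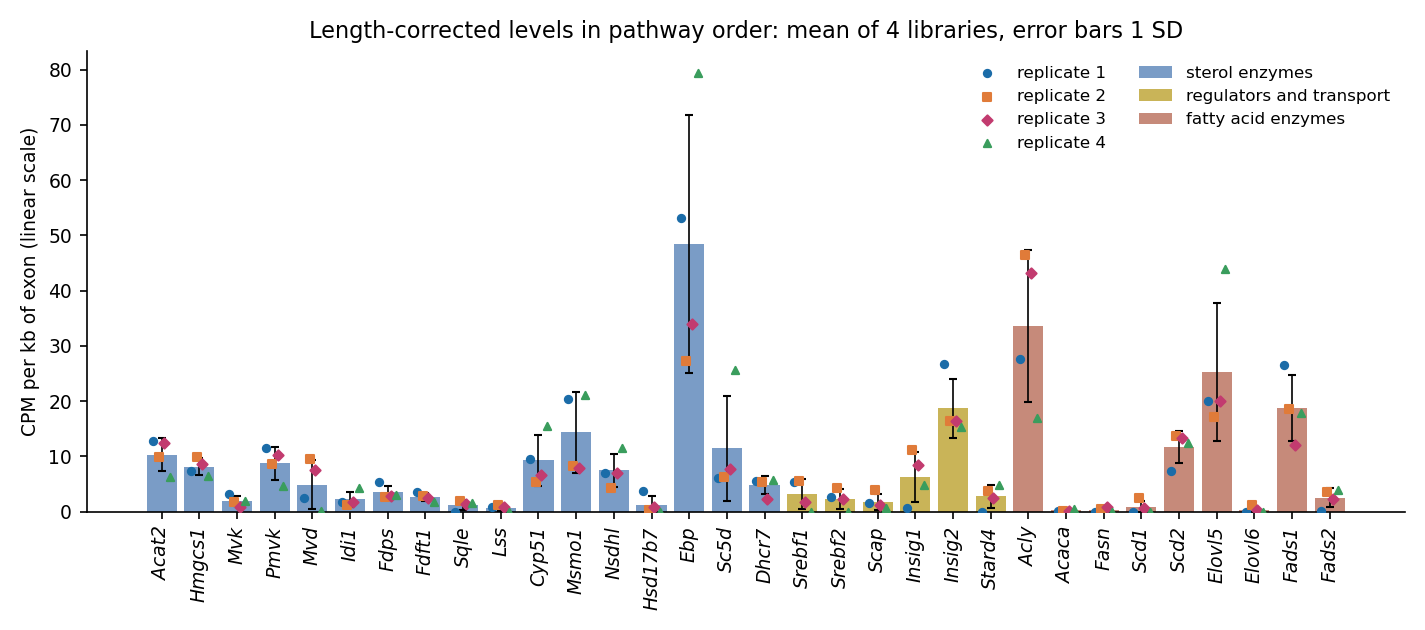
Length-corrected level in CPM per kb of exon on a linear axis, with genes in pathway order within their group, bars for the mean of 4 libraries, error bars for 1 SD (drawn down to 0 at most) and a symbol for each library. Ebp, Acly, Elovl5, Fads1, Insig2 and Msmo1 stand highest, and Acaca, Fasn and Elovl6 lie near 0.

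Ratios within a library remove its depth and ask which of a pair of related genes was higher per kb of exon. Of 13 pairs, 8 kept 1 order in 4 of 4 libraries, 6 with the first-named gene higher and 2 with the second, and 5 were mixed. Fads1 exceeded Fads2 with log2 ratios of 6.96, 2.37, 2.38 and 2.16 in replicates 1 to 4. The mean was 3.47 ± 2.33 (SD, n = 4), or 2.30 without replicate 1. Insig1 was below Insig2, at -5.16, -0.56, -0.94 and -1.67, a mean of -2.08 ± 2.10, or -1.06 without replicate 1. Replicate 1 decided the size of both ratios, and their order was the same in the other libraries. Fdps was below Ggps1, the synthase that extends its product for protein prenylation, by log2 ratios of -1.88, -2.52, -2.33 and -3.69.

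For pairs with a nearly uncounted gene, log2 ratios are given only where both genes had more than 3 counts, and bounds or counts elsewhere. Scd2 exceeded Scd1 by 2.50 and 4.38 on the log2 scale in replicates 2 and 3, and it was at least 250.1-fold higher per kb in replicate 1, where Scd1 had 0 counts. In replicate 4 the counts were 1391 for Scd2 and 1 for Scd1. Elovl5 exceeded Elovl6 by 3.75 and 6.41 in replicates 2 and 3, and was at least 1918-fold higher per kb in replicate 4. In replicate 1 the counts were 1460 for Elovl5 and 1 for Elovl6. Hmgcs1 exceeded Sqle by 2.33, 2.67 and 1.99 in replicates 2 to 4, and was at least 282-fold higher per kb in replicate 1. Acly exceeded Acss2, which makes acetyl-CoA from acetate, by 6.98 and 7.53 in replicates 2 and 3. The counts were 3001 against 2 in replicate 1 and 1829 against 0 in replicate 4. Acacb, the mitochondrial relative of Acaca, had 0 counts in every library.

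The mixed pairs changed order between libraries when the exon union was the length. With the longest transcript, Fdps over Fdft1 and Msmo1 over Sc5d kept 1 order in 4 of 4 libraries, the latter also with no length correction. Srebf2 over Srebf1 gave -0.99, -0.35 and 0.30 in replicates 1 to 3, and both were at 2 counts or fewer in replicate 4. Scap over Insig1 gave 1.15, -1.51, -2.90 and -2.89, Fdps over Fdft1 gave 0.58, -0.11, 0.24 and 0.87, and Msmo1 over Sc5d gave 1.74, 0.39, 0.03 and -0.28. Acaca over Fasn gave -1.34 and -2.24 in replicates 2 and 3. In replicates 1 and 4 Acaca was the higher gene, with 64 counts against 3 and 152 against 0. The 8 pairs with 1 order had p = 0.125 each when the signs were flipped over the 4 libraries in an exact permutation test, two-sided, the smallest value that the test can give (adjusted p = 0.203 over the 13 pairs). The mixed pairs had p = 0.25 to 0.625 in the same exact permutation test, so no order passed 0.05, which this design cannot reach.

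**Figure D3:**
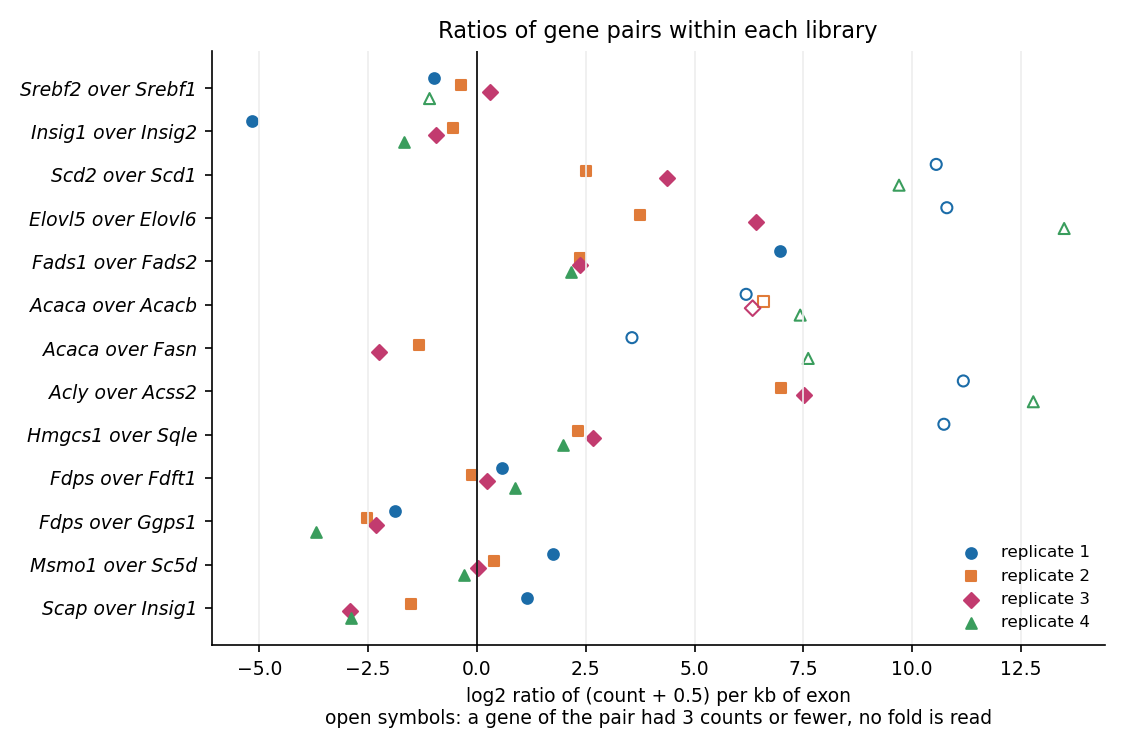
Ratios of 13 gene pairs on the log2 scale, from counts plus 0.5 divided by exon length, with a symbol for each of the 4 libraries and a line at equal levels. Fads1 over Fads2 lies to the right of the line in 4 of 4 libraries, Insig1 over Insig2 and Fdps over Ggps1 lie to the left in 4 of 4, and open symbols mark libraries where a gene of the pair had 3 counts or fewer.

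The test across all genes asked which genes spread over the libraries more than genes of their level do. In edgeR's quasi-likelihood fit, 0 of the 22 members that passed the filter were called at an adjusted p under 0.05, against 0.00% of 9075 genes. At an unadjusted p under 0.05, 0 of the 22 passed, against 4.30% of all genes, and DESeq2 called 0 dispersion outliers. The filter asks for counts in every library and left out 10 members: Mvd, Sqle, Lss, Hsd17b7, Srebf1, Srebf2, Stard4, Fasn, Scd1 and Elovl6. With a filter that asks for 2 of the 4 libraries, all 32 were tested and 0 were called in edgeR, at adjusted p of 0.774 or above. None of the 32 had an unadjusted p under 0.05 there, against 1.88% of 14361 genes. On simulated counts for the 9075 genes, the test called 36 of 100 genes changed 16-fold in a pair of libraries and 0 of 100 changed 4-fold. A 4-fold difference of that kind was therefore not detectable at this spread.

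Among these 22 genes, the widest spreads relative to the trend were those of Insig1, at 3.92 times the trend, Fads2 at 3.67, Sc5d at 3.55 and Acly at 3.47. Their unadjusted p were 0.102, 0.112, 0.118 and 0.122 in edgeR's quasi-likelihood test, with an adjusted p of 0.944 each. Hmgcs1 was the narrowest of the 22, at 0.278 times the trend. The order depended on the filter. With all 32 tested, Srebf1 at 6.76 times the trend, Srebf2 at 6.50, Sc5d at 5.05 and Stard4 at 4.81 were widest, Insig1 stood at 2.67 and Fads2 at 1.30, and Fdft1 was narrowest, at 0.0977. In the fit of the 22 members, 10 lay above the trend, against 48.3% of all genes tested.

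Genes that were nearly absent from 1 library and well counted in another were described by a rule chosen after their values were seen. It asks for 3 counts or fewer in a library and 100 or more in another. The 9 members that met it, of 32, were Mvd, Sqle, Lss, Hsd17b7, Srebf1, Srebf2, Fasn, Scd1 and Elovl6, against 23.9% of the 11663 genes with 100 counts or more in some library and 21.8% of those within the members' range of summed counts. Of these 9, 8 met it in replicate 4 (against 19.0% of all such genes) and 4 in replicate 1 (against 8.94%). None of the 32 met it in replicate 2 (1.65%) or in replicate 3 (2.32%), so 4 members meet it without replicate 4: Sqle, Fasn, Scd1 and Elovl6. The members' shares are near those of all genes. The 9 genes had a median of 6.86 CPM and a median longest transcript of 4832 bases, against 26.3 CPM and 3027 bases for the other 23. Over all such genes with a transcript length, the medians were 4.74 CPM and 3608 bases for those that met the rule and 35.7 CPM and 3176 bases for those that did not. The part of level or length in these near absences was not tested.

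Libraries were also described by how each gene sat around its own mean, on the log2 scale with TMM scaling. The fatty acid enzymes had a median deviation of -0.63 in replicate 1, 0.63 in replicate 2, 0.40 in replicate 3 and -0.09 in replicate 4. In replicate 1, 1 of the 9, Fads1, lay above its own mean, against 54.7% of the 11663 genes with 100 counts or more in some library. The fatty acid median in replicate 3 was -0.029 when replicate 1 was left out. The regulators and transport genes had medians of 0.33, 1.38, 0.51 and -0.76. Without replicate 4, those of replicates 1 and 3 turned to -0.22 and -0.30 and that of replicate 2 was 0.78. The sterol enzymes had medians of 0.31, 0.02, -0.01 and 0.01, with genes far above and far below their means in the same library. Those for replicates 2 to 4 lie near 0 and change with the scaling, to -0.024, -0.053 and 0.087 with CPM of the library total. In replicate 4 the deviation was 1.37 for Sc5d and -3.25 for Lss. Medians over all 11663 genes with 100 counts or more in some library were 0.08, 0.18, 0.13 and -0.24.

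The library with the highest and the lowest level of each gene was counted on the same scale. Among the 22 members tested by edgeR, the highest level fell in replicates 1 to 4 for 8, 5, 1 and 8 genes, against 24.9%, 21.0%, 17.5% and 36.6% of the 9075 genes tested. The lowest fell there for 5, 6, 4 and 7 genes, against 26.6%, 21.8%, 17.7% and 33.9%. A wider set of 11663 genes, those with 100 counts or more in some library, was chosen after the values were seen because it holds all 32 members. There the highest level fell in replicates 1 to 4 for 9, 12, 2 and 9 members, against 26.9%, 24.0%, 19.0% and 30.0% of genes. The lowest fell there for 8, 6, 4 and 14 members, against 26.3%, 16.8%, 13.9% and 43.0%. These shares carry no test, and nothing is read from them as particular to these genes.

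The pair of libraries with the highest levels differed from gene to gene. It was replicates 1 and 2 for 9 members (17.2% of the 11663 genes), among them Srebf1, Srebf2, Scap and Insig2. It was replicates 2 and 3 for 8 members (28.2%): Hmgcs1, Mvd, Insig1, Acly, Fasn, Scd1, Scd2 and Elovl6. It was replicates 1 and 4 for Idi1, Cyp51, Msmo1 and Ebp (19.2%), and replicates 1 and 3 for Acat2, Pmvk, Fdps and Hsd17b7 (13.6%). Replicates 2 and 4 were the pair for Sqle, Stard4, Acaca and Fads2 (11.0%), and replicates 3 and 4 for Nsdhl, Sc5d and Elovl5 (10.8%).

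**Figure D4:**
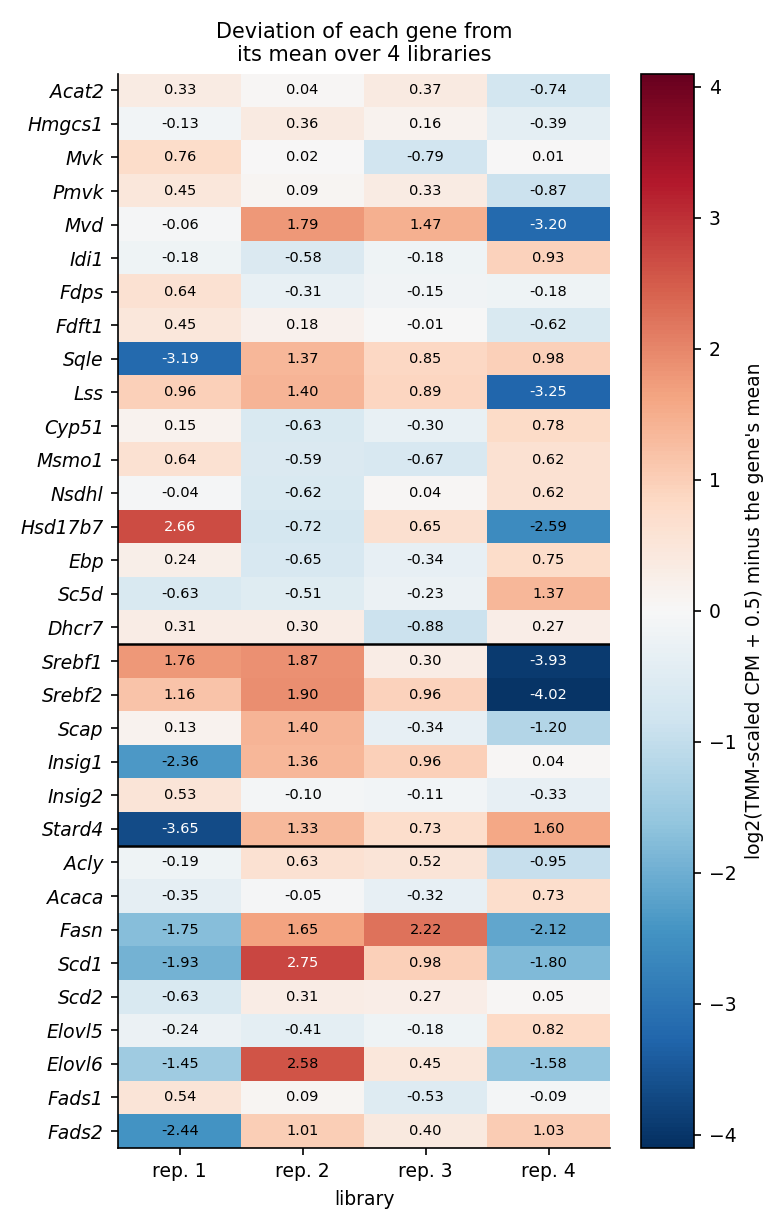
Deviation of each gene from its own mean over the 4 libraries, in log2(TMM-scaled CPM + 0.5), with red for higher and blue for lower and black lines between the 3 groups. Srebf1, Srebf2 and Lss reach -3.93, -4.02 and -3.25 in replicate 4, where Sc5d, Elovl5 and Ebp lie at 1.37, 0.82 and 0.75. Stard4 and Sqle reach -3.65 and -3.19 in replicate 1.

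Transcripts of other cell types, some of which make much lipid, differed between the same libraries. Oligodendrocyte markers, the myelin genes among them, summed to 517, 1844, 1875 and 629 CPM in replicates 1 to 4, and each of the 8 reached 1 CPM in each library. Astrocyte markers summed to 315, 433, 504 and 240.1 CPM, where 5 of 7 reached 1 CPM throughout and Aldh1l1 was at 0 in replicates 1, 3 and 4. Endothelial markers summed to 90.6 to 152 CPM and border-associated macrophage markers to 182, 619, 719 and 365 CPM. Neutrophil markers ran the other way, at 1453, 266, 257 and 2339 CPM, as did monocyte markers at 122, 54.3, 56.7 and 184 CPM. Neuron markers summed to 12.4 to 36.3 CPM and oligodendrocyte precursor markers to 0.196 to 21.0 CPM. B cell markers summed to 734, 312, 370.2 and 691 CPM, with Ms4a1 at 0 in every library. Scd1, Fasn and Elovl6 were high in replicates 2 and 3, as were the oligodendrocyte, oligodendrocyte precursor, astrocyte, endothelial and border-associated macrophage sums. Ebp and Msmo1 were high in replicates 1 and 4, as were the microglial, neutrophil, monocyte and B cell sums. Single markers did not all follow their sum. The microglial markers Sall1 and Cx3cr1 were lowest in replicate 4, at 152 and 3506 CPM, and the monocyte marker Ccr2 had 0.0491 CPM there. Aqp4, Gja1, Pecam1, Cldn5, Cd163 and Ms4a7 were each highest in replicate 4. Ighm gave 649 CPM of the B cell sum in replicate 1. The part of these cell types in the levels of the members was not tested.

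Other genes of the pathways were taken from a list of 58, which was chosen with earlier results of these data known, as the members were. Of 30 other sterol genes, among them oxysterol enzymes and efflux genes, 19 reached 1 CPM in every library and 16 reached 10 CPM. Of 28 other fatty acid genes, 17 and 14 did so. In edgeR's quasi-likelihood test of spread, which has no direction, 37 of the 58 passed the filter and 0 were called.

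Some members share sequence or position with other genes, which can shift their counts. In the GENCODE annotation, exons of 10 of the 32 overlap those of another gene. Fdft1 shares 774 bases with Ctsb, an abundant cathepsin gene of microglia on the opposite strand, and Fdps shares 1124 bases with the predicted gene Gm43738. Scd1 and Scd2, and Acat2 and Acat3, are close relatives whose shared stretches could be split or dropped in counting. The strand setting of the counting is not given in the sources used here, so reads of overlapping genes cannot be told apart.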

How the data were processed

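RNA from sorted naive microglia was sequenced in 4 libraries. The authors deposited raw read counts per gene symbol, 1 file per library, without normalisation. Build GRCm39 and the tools HTSeq 0.11.2, STAR 2.7.10a and SAMtools 1.16.1 come from the submitters' processing notes. For annotation, strand setting and read filters, the answer is not given in the sources used here. The 5 closing rows that name no gene held 20.8% ± 1.28 of reads (SD, n = 4) and were left out.

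CPM used the total assigned to genes. Lengths were unions of GENCODE M21 exons (GRCm38), matched by symbol for all 32 genes. edgeR 4.0.16 in R 4.3.3 (filterByExpr, minimum count 10, TMM, intercept-only quasi-likelihood fit) tested each gene's dispersion against the trend by an upper-tail F test, with Benjamini-Hochberg adjustment over all genes. It was tested on simulated data. DESeq2 1.42.0 was an alternative. Pair ratios used a pseudocount of 0.5, and 1 planned pair is not reported here. The filter removes 10 members, so a filter on 2 of the 4 libraries and a background of genes with 100 counts or more in some library were added after seeing the data. Every member is named. Alternatives were other scalings, filters, lengths and pseudocounts, and leaving out each library. The members and lists were chosen with earlier results of these data known. Each interval or floor covers counting error only, since reads amplified by PCR do not count molecules. Other steps ran in Python 3.11.15 (scipy 1.17.1, numpy 2.4.6, matplotlib 3.10.9, pandas 2.3.3).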

Additional observations from a re-analysis of the deposited data

Results flagged for a closer look

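In 5 of the 32 genes, 1 library stood far from the other 3, by Dixon's criterion for groups of 4. Chance flags about 1 in 20 groups, and 10.7% of all genes with 100 counts or more in some library met the criterion here. Replicate 4 was high for Sc5d, at 125 CPM, for Elovl5, at 155 CPM, and for Acaca, at 7.47 CPM. Replicate 1 was high for Insig2, at 92.5 CPM, and replicate 3 was low for Dhcr7, at 13.5 CPM.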

How the results depend on the processing

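The calls of the spread test were 0 of the members tested under every setting that was run, which were TMM and RLE scaling, 3 filters, DESeq2 and leaving out each library. Sub-list medians per kb of exon were 5.57 for sterol enzymes, 3.06 for regulators and transport genes and 2.53 for fatty acid enzymes, on another scale than CPM. The sterol enzymes were highest there, whereas the regulators and transport genes were highest in CPM. Leaving out each replicate gave 0 to 1 members at 100 CPM. It also gave median deviations of the sterol enzymes of -0.24 to 0.17 in replicate 2, -0.17 to 0.027 in replicate 3 and -0.23 to 0.034 in replicate 4. With a pseudocount of 5, the median deviation in replicate 3 was 0.035 for regulators and transport genes and 0.082 for fatty acid enzymes. With CPM of the library total, 1 gene in place of 2 was highest in replicate 3. The mean log2 ratio of Acaca over Fasn was 1.90 and ranged from -0.0047 to 3.28 without each replicate, the negative value being that without replicate 4, and Fasn was at 3 counts or fewer in replicates 1 and 4. The other 12 pairs kept the sign of their mean under every setting that was run. Without the length correction, Scap over Insig1 was -0.27 in place of -1.54. No paired analysis was possible because there was 1 group. The depth limits what can be read of genes at 3 counts or fewer.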

Other observations

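Some enzymes that work beside the elongases had higher means per kb of exon than Elovl6 and Fasn. These values were looked at after the members' levels were known and carry no test. Tecr, the last reductase of the elongation cycle, stood at 95.4 ± 30.8 CPM per kb (SD, n = 4), Hacd3, a dehydratase of the cycle, at 68.8 ± 35.8 and Hsd17b12, its first reductase, at 63.7 ± 34.9. The other dehydratases were lower on average, Hacd1 at 4.49 ± 6.23, Hacd2 at 13.6 ± 5.10 and Hacd4 at 5.88 ± 1.75 CPM per kb. Hacd1 stood at 13.8 CPM per kb in replicate 4 and at 1.15, 1.28 and 1.70 in replicates 1 to 3. Elovl1, an elongase of very long saturated chains, stood at 50.6 ± 19.4 CPM per kb. The other elongases of the list were as scarce as Elovl6 or nearly so. Elovl2 stood at 0.513 ± 0.427, Elovl4 at 0.369 ± 0.518 and Elovl7 at 1.03 ± 1.96 CPM per kb, and Elovl3 had 0 counts in every library. Elovl7 had 0, 359, 12 and 1 counts in replicates 1 to 4, so its mean rests on replicate 2. Thrsp, a gene known from lipogenic tissues, gave 3362, 2370, 3729 and 4785 counts in replicates 1 to 4 and 75.7 ± 24.4 CPM per kb, above the mean of each of the 32 genes. Mlxipl, which encodes the carbohydrate-responsive factor ChREBP, had 3325, 3425, 2855 and 264 counts, so replicate 4 was low, as it was for Srebf1 and Srebf2.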
